A study of Mus musculus with 35 samples.

Results

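Interleukin-1 (IL-1) family cytokines and their receptors were followed in myeloid-derived suppressor cells (MDSC) of mice with pancreatic tumors. The members were the rows of the count table whose Ensembl identifier carries the symbol Il1a, Il1b, Il1rn, Il1r1, Il1r2, Il1rap, Il18, Il18bp or Il18rap. All 9 were found among 53379 gene identifiers. They comprise 3 ligands (Il1a, Il1b and Il18), 2 soluble antagonists (Il1rn and Il18bp), the signalling receptor Il1r1, the decoy receptor Il1r2 and the accessory chains Il1rap and Il18rap.

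IL-1 alpha and IL-1 beta bind the same receptor, IL1R1, which signals through MyD88 and IRAK kinases to NF-kB once the accessory chain IL1RAP has joined it. IL1RN, the IL-1 receptor antagonist, occupies the receptor without signalling, and IL1R2 binds the cytokines but lacks a signalling domain. IL-18 uses a related receptor with the accessory chain IL18RAP, and IL18BP neutralises it in solution. IL-1 beta and IL-18 are made as precursors that caspase-1 cleaves, so a transcript level is not a level of active cytokine.

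T110299 cells, a single line derived from a pancreatic tumor of a genetically engineered mouse with Ptf1a-Cre, were implanted into the pancreas of 8 C57BL/6 wild type mice. On days 18 and 20, 4 mice received 50 µg poly(I:C), a synthetic double-stranded RNA sensed by MDA5, complexed with polyethylenimine and given intravenously (treated), and 4 control mice received glucose as the labels describe the control, and are named untreated. From tumor and spleen of these mice, CD11b+ cells were enriched and sorted into Ly6C low Ly6G+ polymorphonuclear (PMN-) MDSC and Ly6C high Ly6G- monocytic (M-) MDSC, while pieces of untreated bulk tumor were lysed directly. All 9 groups therefore come from tumor-bearing mice, and no tumor-free animal or treated bulk tumor was analysed here.

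The table held 35 libraries in 9 groups, of which 34 were used after a treated M-MDSC library from tumor with 10 counts in all was left out. Groups had 4 libraries, except for 3 treated libraries each of PMN-MDSC from spleen and M-MDSC from tumor. The total was 793070 to 4357105 counts in the 30 MDSC libraries and 3771590 to 8886115 in bulk tumor, with the smallest library, untreated M-MDSC library 4 from tumor, at 793070. Summed neutrophil markers (11 genes) in spleen were 24580.3 to 77539 CPM (counts per 1e6 counts of the library) in PMN-MDSC and 1045 to 10331 CPM in M-MDSC. PMN-MDSC from tumor went partly against their label. Their neutrophil sum was 1513 to 5261 CPM in untreated and 4698 to 11417 CPM in treated mice, and Ly6g, the antigen used for the sort, lay between 0 and 9.19 CPM in the untreated libraries. Their summed macrophage markers (8 genes) reached 10024 to 13633 CPM in untreated mice, above the 3713 to 8619 CPM of untreated tumor M-MDSC. In treated mice the sums of both cell types overlapped, with 7639 to 19127 CPM in PMN-MDSC and 5542 to 29263 CPM in M-MDSC. The name PMN-MDSC is kept below for the sorted fraction, and the part of macrophage RNA in its values was not tested.

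All 9 members matched a promoter window of RefSeq on GRCm38.p6, taken from 250 bases before to 50 bases after an annotated start, with 12 windows in all because Il1r1 and Il1rn have several. The windows were searched on both strands for the core of the interferon-stimulated response element (ISRE), GAAA, any 2 bases and GAAA, and for a core of NF-kB sites, GGGA, any 4 bases and CC. The ISRE letters occurred in the window of 1 member, Il1rap, starting 20 bases after its start site, and in 3.44% of all 32851 windows. The NF-kB letters occurred in Il1rn, 54 bases before its start, and in Il1rap, 119 bases before its start, and in 20.7% of all windows. These 3 stretches are all the matches found in the 12 windows, and capitals mark the matched letters.
Il1rap, ISRE, plus strand, chr16:26581715-26581744 (GRCm38.p6): tccggaggggGAAAAAGAAAgtgcggcgga
Il1rap, NF-kB, plus strand, chr16:26581576-26581605 (GRCm38.p6): cgcggcgggcGGGACTGCCCcgcgtgcggc
Il1rn, NF-kB, plus strand, chr2:24336796-24336825 (GRCm38.p6): gtaggagtatGGGAGTGGCCatctcccccc
The matches do not overlap each other. They are descriptions of letters and not of binding, and no match in the windows of the other members says only that these letters are absent from these bases.

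Transcripts of both IL-1 ligands were abundant in MDSC from tumors. Il1a (chromosome 2, 129299610 to 129309972, minus strand) encodes IL-1 alpha, which is active without caspase-1. In untreated mice, Il1a stood at 820.0, 777, 845 and 550.1 CPM in the 4 PMN-MDSC libraries from tumor and at 399, 204, 318 and 131 CPM in those of M-MDSC. PMN-MDSC and M-MDSC from spleen held 3.98, 2.49, 1.02 and 0.963 CPM and 0.527, 0.464, 0 and 0.238 CPM. Every tumor library thus lay far above every spleen library. The log2 fold change of tumor over spleen was 8.30 ± 0.41 (SE) in PMN-MDSC. Among M-MDSC the 4 untreated spleen libraries held 3 counts in all and the tumor libraries 2277, a ratio per total count of 1051 (exact 95% interval 359 to 5102, for counting error only). Il1a passed the filter on a mean of 25 counts through the tumor libraries alone, so both differences are a description.

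Il1b (chromosome 2, 129364570 to 129371139, minus strand), the gene of IL-1 beta, was the member with the highest mean level per exon length in 6 of the 8 MDSC groups. The exceptions were treated spleen PMN-MDSC, where the mean of Il1r2 was highest through library 3 while Il1b exceeded it in the other 2 libraries, and treated spleen M-MDSC, where Il1rn was highest. Untreated PMN-MDSC held 1451, 2725, 1653 and 2306 CPM of Il1b in spleen and 5595, 7831, 8419 and 8527 CPM in tumor. The tumor libraries were all higher, by 1.74 ± 0.30 on the log2 scale (adjusted p = 0.00066). Untreated M-MDSC held only 85.4, 55.7, 65.8 and 71.4 CPM in spleen but 6414, 4157, 5353 and 3751 CPM in tumor. This difference of 6.40 ± 0.24 on the log2 scale (adjusted p = 1.85e-08) brought M-MDSC close to PMN-MDSC. In tumor the log2 fold change of M-MDSC over PMN-MDSC was -0.67 ± 0.22 with overlapping libraries (adjusted p = 0.0634; DESeq2 0.00981), whereas in spleen the log2 fold change was -5.26 ± 0.28 (adjusted p = 1.44e-06). Adjusted p in tumor was 0.0273 without untreated PMN-MDSC library 1 and 0.04 without M-MDSC library 1. Macrophage markers were higher in tumor together with both ligands, with 8 of 8 called in PMN-MDSC (median log2 fold change 2.89) and 8 of 8 in M-MDSC (median 3.47). Their sum in untreated mice was 478 to 1491 CPM in PMN-MDSC and 961 to 1252 CPM in M-MDSC from spleen, against 10024 to 13633 and 3713 to 8619 CPM from tumor. The part of this shift in the tumor over spleen differences of the members was not tested.

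In tumors of treated mice, M-MDSC held less Il1b. The 3 treated libraries stood at 1499, 966 and 1076 CPM, all below the 4 untreated ones, a log2 fold change of -2.15 ± 0.30 (adjusted p = 0.0111). Without untreated library 3 or treated library 3 the values were -2.11 and -2.08, with adjusted p of 0.0508 and 0.0635. Summed monocyte markers (7 genes) were also lower, at 2552 to 5052 CPM in treated and 9119.6 to 12361 CPM in untreated libraries. Of the 7 markers 1 was called lower and 0 higher, with a median log2 fold change of -0.07, and the difference in the sum was mostly in Fn1, the fibronectin gene (mean of 7337 CPM in untreated and 996 CPM in treated libraries). The endothelial sum (4 genes) was 20.2 to 42.5 CPM in untreated and 74.6 to 157 CPM in treated libraries, with 1 of 2 tested markers called higher. The part of these shifts in the Il1b value was not tested. In spleen PMN-MDSC, treated libraries held 357, 1206 and 226 CPM of Il1b. All were below the untreated ones, but the change of -1.46 ± 0.59 was not called (adjusted p = 0.15), and without treated library 2 it was -2.55 (adjusted p = 0.0176). PMN-MDSC from tumors of treated mice had 2968, 2948, 6819.7 and 5479.6 CPM, overlapping the untreated range (log2 fold change -0.74 ± 0.34, adjusted p = 0.283). M-MDSC from spleens of treated mice held 48.1, 68.1, 33.4 and 17.7 CPM, and the difference of -0.65 ± 0.34 was not called (adjusted p = 0.212; 0.0434 without treated library 2).

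Treatment did not change Il1a past the threshold where it could be tested. Tumor PMN-MDSC from treated mice held 282, 313, 513 and 831 CPM (log2 fold change -0.60 ± 0.37, adjusted p = 0.431; -1.09 and 0.0451 without treated library 4). Treated tumor M-MDSC held 212, 115 and 414 CPM (log2 fold change -0.18 ± 0.48, adjusted p = 0.877), with a range that enclosed the untreated one. In spleen M-MDSC, Il1a was too low for the filter. Its treated libraries held 2.76, 2.33, 6.41 and 5.75 CPM, from 47 counts in all against 3 in the untreated ones, a ratio of 14.9 (exact 95% interval 4.81 to 75, counting error only).

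**Figure D1:**
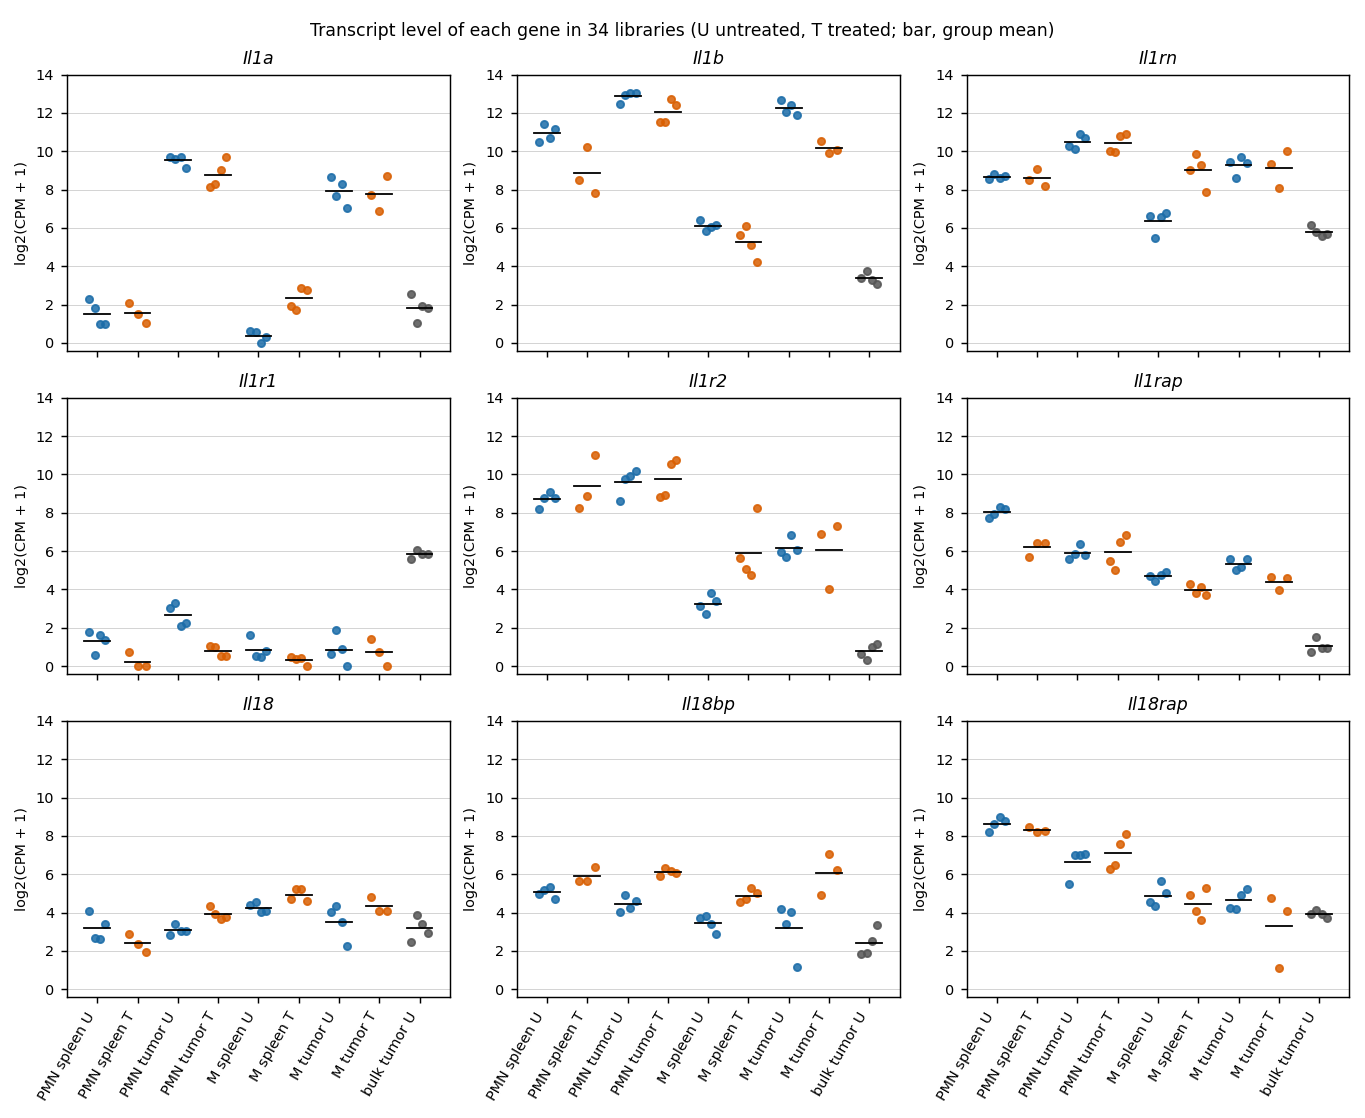
Level of each member, as log2(CPM + 1), in the 34 libraries by group; points are libraries, bars are group means, U is untreated (blue, bulk tumor gray) and T treated (orange). Il1a is at most 6.41 CPM in spleen and bulk tumor and at least 115 CPM in tumor MDSC. Il1b spans from 7.56 CPM in bulk tumor to 8527 CPM in tumor PMN-MDSC, and Il1r1 is high only in bulk tumor.

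Il1rn (chromosome 2, 24336853 to 24351494, plus strand), which encodes the receptor antagonist, rose in spleen M-MDSC with treatment. It stood at 98.6, 43.7, 94.8 and 107 CPM in untreated and at 522, 926, 627 and 229.5 CPM in treated libraries. The lowest treated library exceeded the highest untreated library, and the log2 fold change was 2.82 ± 0.43 (adjusted p = 0.00225). Over the same groups the monocyte sum was 6245 to 9050 CPM in untreated and 3214 to 4636 CPM in treated libraries, with 3 of 7 markers called lower and 2 higher. The macrophage sum was 961 to 1252 and 497 to 885 CPM, although 3 of 8 markers were called higher and 2 lower. The sum of endothelial markers (4 genes) was 24.8 to 34.8 and 129 to 293 CPM, mainly through Kdr, which encodes a VEGF receptor (3.75 ± 2.96 and 153 ± 83.4 CPM, SD, n = 4 each), while Tek was at 0 in all 8 libraries. The part of these shifts in the values of Il1rn, and of Il1r2, Il1rap, Il18 and Il18bp in the same groups, was not tested. The other treated groups did not follow. Spleen PMN-MDSC held 404 ± 30.5 CPM (SD, n = 4) in untreated and 394 ± 128 CPM (SD, n = 3) in treated mice, tumor PMN-MDSC 1475 ± 383 and 1437 ± 498 CPM (SD, n = 4 each), and tumor M-MDSC 640.1 ± 180.5 (SD, n = 4) and 649 ± 373 CPM (SD, n = 3). Their log2 fold changes were 0.26 ± 0.26, -0.03 ± 0.31 and -0.07 ± 0.42, with adjusted p of 0.565, 0.973 and 0.948.

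Like the ligands, Il1rn was higher in tumor than in spleen of untreated mice, by 1.72 ± 0.22 on the log2 scale in PMN-MDSC (adjusted p = 0.000118). The difference in M-MDSC was 3.15 ± 0.29 (adjusted p = 1.13e-05). It was lower in M-MDSC than in PMN-MDSC both in spleen (-2.62 ± 0.25, adjusted p = 2.39e-05) and in tumor (-1.25 ± 0.23, adjusted p = 0.00409). No library of the lower group reached the higher group in any of these 4 comparisons.

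To set the cytokine against its antagonist, counts were divided by summed exon length (FPKM, fragments per kilobase of exon and per 1e6 counts). The FPKM ratio of Il1b to Il1rn was lower in treated than in untreated libraries without overlap in all 4 pairs of groups. In spleen M-MDSC it was 1.94 to 3.71 in untreated mice and 0.155 to 0.268 in treated mice, so that antagonist transcripts exceeded those of the cytokine in every treated library. In tumor M-MDSC it was 16.4 to 30.9 and 3.06 to 10.2. In PMN-MDSC it was 11.4 to 17.9 and 2.28 to 6.54 in spleen, and 12.7 to 20.6 and 8.20 to 11.1 in tumor. These ratios are given as a description with no test. Bulk tumor had ratios of 0.396 to 0.68, below 1 in all 4 libraries.

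**Figure D2:**
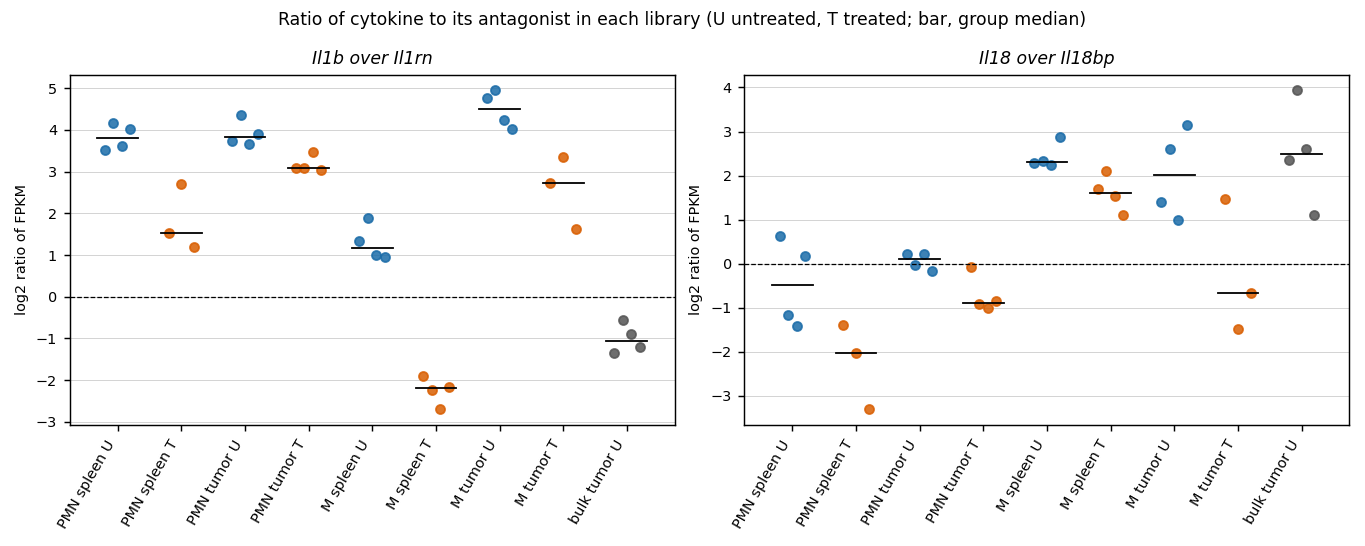
Log2 ratio of FPKM per library for Il1b over Il1rn (left) and Il18 over Il18bp (right), by group; points are libraries, bars are group medians, U is untreated and T treated, and the dashed line marks equal FPKM. Treated libraries lie below all untreated ones for Il1b over Il1rn in each pair of groups, with spleen M-MDSC passing below the line.

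Il1r1 (chromosome 1, 40225080 to 40317257, plus strand), the signalling receptor, was close to the detection limit in MDSC and was found mainly in bulk tumor. Bulk tumor held 47.6, 66, 57.4 and 56.1 CPM. Untreated tumor PMN-MDSC held 7.28, 8.67, 3.2 and 3.79 CPM, and untreated tumor M-MDSC 0.55, 2.7, 0.832 and 0 CPM, the latter from 0 to 4 counts each. Every bulk tumor library was above every sorted library, by 3.05 ± 0.29 on the log2 scale over PMN-MDSC (8 to 16 counts each). Against M-MDSC no fold is given for want of counts. Il1r1 passed the count filter in both comparisons through bulk tumor alone, so that these differences are a description. In treated tumor PMN-MDSC the 4 libraries held 1.1, 1.02, 0.456 and 0.431 CPM, from 1 to 4 counts each, all below the untreated ones. This comparison was not tested for lack of counts and is a description. A fit with no filter on low counts gave an adjusted p of 0.00701, from 44 untreated and 9 treated counts in all. In the other MDSC groups Il1r1 stayed at or below 2.39 CPM. A gene of the same strand, Gm38070, lies within its bounds but shares no exon base with it.

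Il1r2 (chromosome 1, 40074079 to 40125231, plus strand), the decoy receptor, was by contrast a transcript of PMN-MDSC. Untreated PMN-MDSC held 295, 442, 543 and 428 CPM in spleen and 391, 862, 948 and 1141 CPM in tumor. Untreated M-MDSC held 7.91, 5.57, 12.8 and 9.52 CPM in spleen and 61.6, 51.2, 113 and 65.6 CPM in tumor. M-MDSC were therefore lower in every library, with a log2 fold change of -5.94 ± 0.30 in spleen (adjusted p = 1.10e-06) and -3.56 ± 0.35 in tumor (adjusted p = 0.000127). Bulk tumor held at most 1.26 CPM.

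Il1r2 was higher in tumor than in spleen for M-MDSC (3.28 ± 0.29) with no overlap, a description because it passed the count filter through tumor alone. For PMN-MDSC the difference was 0.82 ± 0.32 (adjusted p = 0.0461) with overlapping libraries, and it lost its call in 6 of 8 fits without 1 library, namely untreated spleen libraries 1, 3 and 4 and tumor libraries 2, 3 and 4, where it ranged from 0.65 to 0.92 with adjusted p up to 0.127. Over the same groups the neutrophil sum was 24580.3 to 43381 CPM in spleen and 1513 to 5261 CPM in tumor.

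With treatment, Il1r2 in spleen M-MDSC was 48.9, 32.3, 26.3 and 299 CPM, all above the untreated range, a log2 fold change of 3.55 ± 0.93 (adjusted p = 0.0327). It passed the count filter through the treated libraries alone, so this difference is a description, and DESeq2 gave it no adjusted p. Treated library 4 stood apart at 299 CPM, and without it the change was 2.07 (adjusted p = 0.00119). That library was also the highest of its group in summed markers of NK cells (167 CPM against 7.89 to 11.9), B cells (114 against at most 17.2) and T cells (55.7 against 4.34 to 6.41), and together with library 1 in those of neutrophils (5619 and 6267 CPM against 1045 and 1434). Without libraries 1 and 4, an alternative chosen after seeing the data, the change was 1.82 (adjusted p = 0.00244). The call was lost with no filter on low counts (adjusted p = 0.118) and without untreated library 1, 2, 3 or 4, with values of 3.38 to 3.74 and adjusted p of 0.077 to 0.0933. Treated PMN-MDSC varied widely, with 303, 465 and 2046 CPM in spleen and 446, 479, 1488 and 1697 CPM in tumor. Neither change was called (1.41 ± 0.58, adjusted p = 0.161, and 0.33 ± 0.51, adjusted p = 0.79). In spleen the value was 0.13 without treated library 3 and 1.83 (adjusted p = 0.0483) without treated library 1. In tumor it was -0.11 without treated library 4.

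Per exon length, the decoy exceeded the signalling receptor in all MDSC groups, with mean FPKM of 224 against 0.256 in untreated spleen PMN-MDSC and 38.2 against 0.16 in untreated tumor M-MDSC. Bulk tumor showed the reverse, with 0.402 FPKM of Il1r2 and 8.92 FPKM of Il1r1.

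Il1rap (chromosome 16, 26581704 to 26730117, plus strand) encodes the chain that IL-1 and IL-33 receptors need for signalling. In spleen PMN-MDSC it was 213, 239.5, 316 and 294 CPM in untreated and 51.2, 85 and 85.7 CPM in treated mice. The groups did not overlap, and Il1rap fell by 1.54 ± 0.26 on the log2 scale (adjusted p = 0.00902). Markers of other cells also shifted between these groups. The macrophage sum was 478 to 1491 CPM in untreated and 123 to 206 CPM in treated libraries, with 7 of 8 markers called lower, and 3 of 5 tested monocyte markers were called lower and 1 higher. The sum of red pulp macrophage markers (5 genes) was 863 to 1439 and 425 to 688 CPM with 1 called lower, that of dendritic cell markers (7 genes) 26.1 to 75.6 and 1.44 to 4.46 CPM with the 1 tested called lower, and that of neutrophil markers 24580.3 to 43381 and 35176 to 77539 CPM with 5 of 11 called higher. The part of these shifts in the Il1rap value was not tested. In tumor PMN-MDSC the treated libraries held 43, 31.4, 89.4 and 112 CPM and enclosed the untreated range of 47.3 to 81.9 CPM (log2 fold change 0.21 ± 0.41, adjusted p = 0.836; -0.22 without treated library 4).

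In M-MDSC, Il1rap was 25.3, 20.4, 26.1 and 28.6 CPM in untreated and 18.1, 13.1, 16.5 and 11.9 CPM in treated spleen libraries (-0.68 ± 0.19, adjusted p = 0.0297). It was 47.3, 31, 35.5 and 46.7 CPM in untreated and 24, 14.9 and 23.2 CPM in treated tumor libraries (-1.05 ± 0.28, adjusted p = 0.0751). The groups were apart in both compartments, but only spleen passed the threshold, and in tumor DESeq2 gave an adjusted p of 0.0179. The spleen call was lost with no filter on low counts (adjusted p = 0.0757) and without untreated library 1, 3 or 4 or treated library 2 or 4, with values of -0.67 to -0.57 and adjusted p of 0.0565 to 0.098.

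Il1rap was the member called in opposite directions between compartments. In untreated mice its log2 fold change of tumor over spleen was -2.28 ± 0.21 for PMN-MDSC (adjusted p = 1.93e-05) and 0.91 ± 0.20 for M-MDSC (adjusted p = 0.00477). In spleen the log2 fold change of M-MDSC over PMN-MDSC was -3.78 ± 0.18 (adjusted p = 9.68e-07). In tumor it was -0.65 ± 0.22 (adjusted p = 0.0705). Adjusted p was 0.0433 without PMN-MDSC library 1 and 0.0418 without M-MDSC library 4. The groups were barely apart, with the highest M-MDSC library at 47.28 and the lowest PMN-MDSC library at 47.31 CPM. For tumor over spleen in PMN-MDSC, 11 of 11 neutrophil markers were called lower (median log2 fold change -3.84) and 8 of 8 macrophage markers higher. In M-MDSC 6 of 8 tested neutrophil markers were lower and 1 higher. The part of these shifts in the Il1rap values was not tested.

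Of the IL-18 genes, Il18bp (chromosome 7, 102014885 to 102018690, minus strand), the neutralising protein, responded to treatment. In tumor PMN-MDSC it was 15.2, 29.3, 18 and 23.2 CPM in untreated and 59.4, 79.9, 69.8 and 65.9 CPM in treated mice. The log2 fold change was 1.65 ± 0.23 (adjusted p = 0.00271), and the call held without each library in turn. The monocyte sum of these groups was 4377 to 8594 CPM in untreated and 1353 to 3029 CPM in treated libraries, a difference mostly in Fn1 (mean of 4815 and 672 CPM), while 2 of 7 markers were called lower and 2 higher. The neutrophil sum was 1513 to 5261 and 4698 to 11417 CPM, with a median log2 fold change of 1.47 and 0 of 11 markers called. The dendritic cell sum (7 genes) was 21.6 to 37 and 2.58 to 12.8 CPM, with 0 markers tested. The part of these shifts in the Il18bp value was not tested. In spleen M-MDSC it was 12.1, 13, 9.52 and 6.43 CPM in untreated and 22.9, 24.7, 37.8 and 31.4 CPM in treated mice (1.60 ± 0.27, adjusted p = 0.00346). In spleen PMN-MDSC it was 30.5, 35.9, 40 and 25 CPM and 49.3, 48.6 and 83.2 CPM (1.17 ± 0.27, adjusted p = 0.0259). Between these spleen groups 5 of 11 neutrophil markers were called higher (median log2 fold change 1.06) and 0 lower, and 7 of 8 macrophage markers lower and 0 higher. The part of these shifts in the Il18bp value was not tested either.

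The spleen PMN-MDSC call for Il18bp was lost without untreated library 1 (1.09, adjusted p = 0.0755) or 4 (1.03, adjusted p = 0.0783) or treated library 3 (0.85, adjusted p = 0.111). Tumor M-MDSC held 17, 9.44, 15.3 and 1.26 CPM of Il18bp in untreated and 29.1, 132 and 73.7 CPM in treated mice. The groups did not overlap and the difference was large, 2.65 ± 0.59 on the log2 scale, but it was not called (adjusted p = 0.0532). DESeq2 gave an adjusted p of 0.000439, and without treated library 1 edgeR gave 3.03 and 0.0157. Treated library 2, the highest in Il18bp, also had the highest macrophage sum (29263 CPM against 5542 and 11416), and untreated library 4, the lowest, had the fewest counts. Without both, chosen after seeing the data, the change was 1.80 (adjusted p = 0.0563). Thus treated libraries held more Il18bp than untreated ones in all 4 settings, in every library, and 3 of the 4 differences were called. Between compartments, Il18bp was lower in tumor than in spleen of untreated PMN-MDSC (-0.75 ± 0.27, adjusted p = 0.0325), a call lost without spleen library 2 or 3 or tumor library 1, 3 or 4 (-0.78 to -0.59, adjusted p of 0.0569 to 0.102) and under upper-quartile scaling (-0.58, adjusted p = 0.0765).

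Il18 (chromosome 9, 50554827 to 50581840, plus strand) was low throughout, between 2.88 and 37.1 CPM in the 34 libraries. Spleen M-MDSC rose from 20, 22.3, 15.3 and 15.9 CPM to 25.2, 36.4, 37.1 and 23 CPM with treatment (0.81 ± 0.22, adjusted p = 0.03). The groups were just apart, and the call was lost in a fit over all 4 M-MDSC groups (adjusted p = 0.107) and without untreated library 1, 3 or 4 or treated library 2 or 3, with values of 0.69 to 0.86 and adjusted p of 0.0606 to 0.1. Tumor PMN-MDSC held 6.07, 9.75, 7.19 and 7.11 CPM in untreated and 19.2, 14.3, 11.9 and 12.5 CPM in treated mice, apart but not called (0.91 ± 0.27, adjusted p = 0.105). Tumor M-MDSC overlapped (0.55 ± 0.44, adjusted p = 0.549), and in spleen PMN-MDSC the counts were too low for the filter. The FPKM ratio of Il18 to Il18bp was 4.72 to 7.28 in untreated and 2.15 to 4.32 in treated spleen M-MDSC, and 0.898 to 1.17 and 0.499 to 0.947 in tumor PMN-MDSC, where the ranges overlapped.

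Il18rap (chromosome 1, 40515362 to 40551705, plus strand), the accessory chain of the IL-18 receptor, followed the pattern of a PMN-MDSC gene. Untreated PMN-MDSC held 294, 387, 511 and 433 CPM in spleen and 44.3, 126, 127 and 132 CPM in tumor, a difference of -2.05 ± 0.33 on the log2 scale (adjusted p = 0.000437). Tumor library 1, the lowest, also had the lowest neutrophil sum of its group (1513 CPM against 3895 to 5261). Between these spleen and tumor groups, 11 of 11 neutrophil markers were called lower in tumor (median log2 fold change -3.84). Their part in the Il18rap difference was not tested. Untreated M-MDSC held 30.6 ± 13.1 CPM of Il18rap in spleen and 25.1 ± 9.30 CPM in tumor (SD, n = 4 each; -0.07 ± 0.32, adjusted p = 0.899). Their log2 fold change over PMN-MDSC was -4.11 ± 0.31 in spleen (adjusted p = 6.01e-06) and -2.19 ± 0.36 in tumor (adjusted p = 0.00249). No treatment effect on Il18rap was called. Treated tumor M-MDSC library 2, highest in macrophage markers, had 1.15 CPM from 5 counts, against 26.1 and 15.8 CPM in the others.

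**Figure D3:**
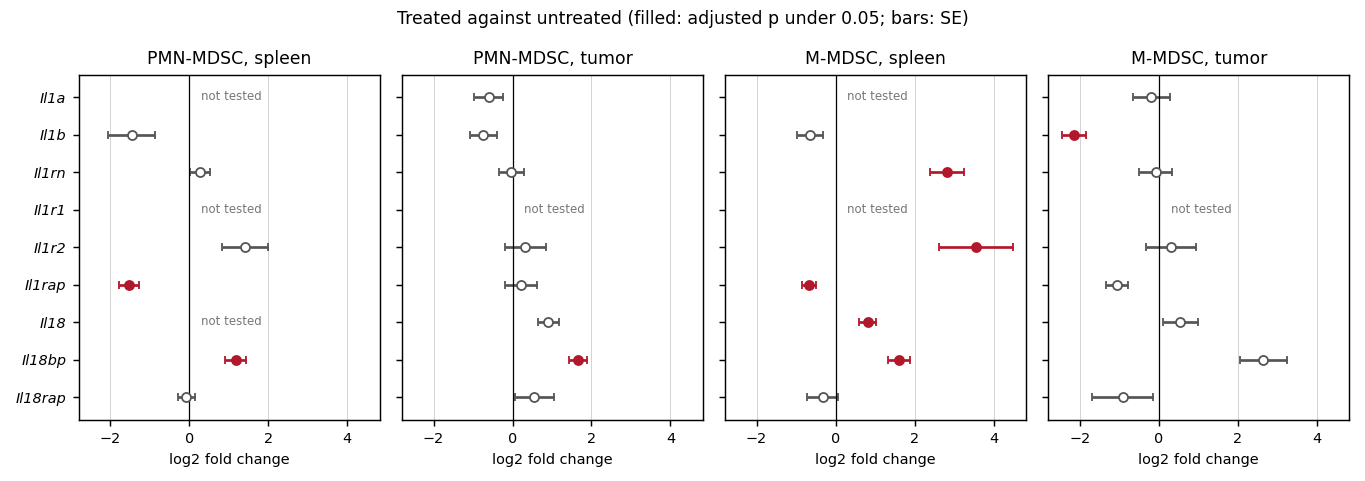
Log2 fold change of treated over untreated for each member in the 4 sorted populations, with SE; filled red points have an adjusted p under 0.05 and open points do not, and "not tested" marks members under the count filter. Il18bp is above 0 in all 4 panels, Il1rap is called lower in both spleen panels, and the call for Il1b is in tumor M-MDSC.

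The members called at an adjusted p under 0.05 were counted against all genes tested. With treatment, spleen PMN-MDSC had 1 higher and 1 lower of 6 members tested, where 6.1% of 7261 genes were higher and 5.52% lower. Tumor PMN-MDSC had 1 higher and 0 lower of 8 (2.29% and 1.07% of 8308 genes). Spleen M-MDSC had 4 higher and 1 lower of 7 (10.7% and 8.96% of 8827 genes), of which Il1r2 passed the filter through the treated libraries alone, with a mean of 24.5 counts in the untreated ones. Tumor M-MDSC had 0 higher and 1 lower of 8 (1.82% and 1.06% of 8360 genes), while 3 had an unadjusted p under 0.05 and DESeq2 called 3. The median log2 fold change of the members tested was 0.09, 0.27, 0.81 and -0.13 in this order, and that of all genes 0.01, 0.01, -0.01 and 0.00. In spleen M-MDSC the count of 5 was 2 without untreated library 1, 3 or 4. In spleen PMN-MDSC the count of 2 was 1 without untreated library 1 or 4 or treated library 3. In tumor M-MDSC it was 0 without untreated library 3 or treated library 3 and 2 without treated library 1, and in tumor PMN-MDSC it was 2 without treated library 4.

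Between compartments, 4 members were higher and 3 lower in tumor of 7 tested in untreated PMN-MDSC, where 29.4% and 29.7% of 7971 genes were. Il1a was 1 of the 4 and passed the count filter through tumor alone. In untreated M-MDSC, 5 were higher and 0 lower of 8 (15.7% and 12.7% of 8298 genes), of which Il1a and Il1r2 passed through tumor alone, Il1r2 with a mean of 24.5 counts in spleen. Between cell types in spleen, 0 members were higher and 6 lower in M-MDSC of 7 tested (7 called without PMN-MDSC library 1, where Il18 was higher in M-MDSC with an adjusted p of 0.0117) (33.4% and 30.9% of 8579 genes), of which Il1r2 passed through PMN-MDSC alone. In tumor 0 were higher and 4 lower of 7 (5.73% and 7.25% of 7623 genes), with a median of -1.25 against 0.01. Tumors were minced and dissociated mechanically with a tumor dissociation kit, and spleens were strained and freed of red cells, so compartment and handling cannot be told apart. Under upper-quartile scaling the share of all calls that were higher went from 52.5% to 35.6% for treatment in spleen PMN-MDSC, from 55.2% to 39.3% for tumor over spleen in M-MDSC, from 51.9% to 64.5% for M-MDSC over PMN-MDSC in spleen and from 52% to 62.3% for bulk tumor over PMN-MDSC. In these bulk libraries of sorted cells, fewer cells of a type and less RNA per cell cannot be told apart either.

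**Figure D4:**
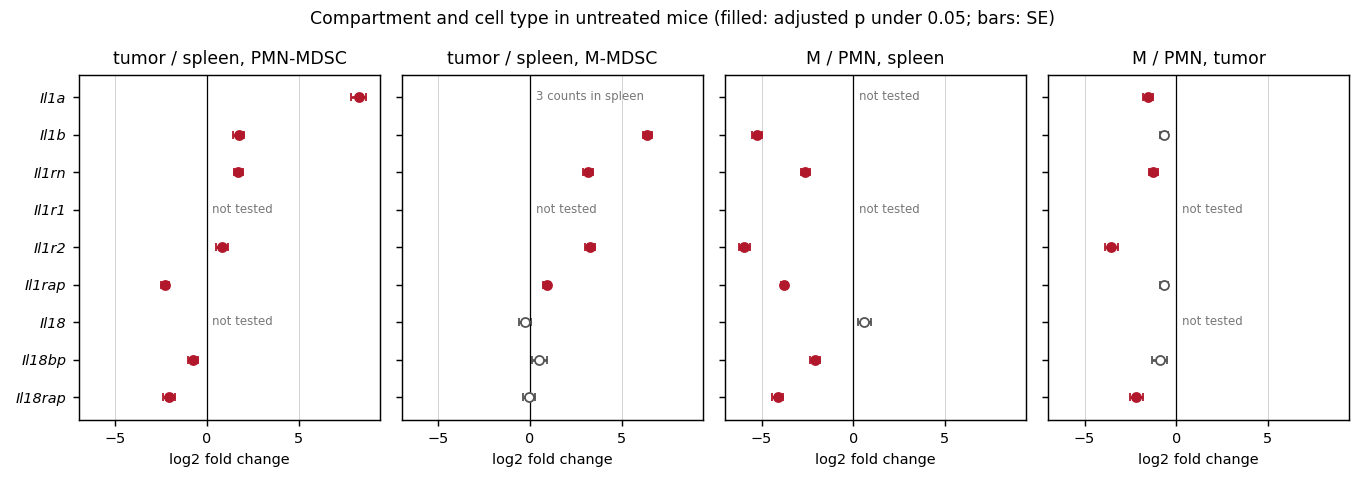
Log2 fold change of each member between tumor and spleen (left panels) and between M-MDSC and PMN-MDSC (right panels) in untreated mice, with SE; filled red points have an adjusted p under 0.05, open points do not, and no point is drawn for Il1a in M-MDSC between compartments, where spleen held 3 counts. For M-MDSC against PMN-MDSC 6 members are called lower in spleen and 4 in tumor, and Il1rap is called on opposite sides of 0 in the left panels.

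Against bulk tumor, 7 of 9 members were higher in sorted tumor PMN-MDSC and 7 of 9 in tumor M-MDSC, and Il1r1 was the 1 member higher in bulk tumor. In these comparisons 33.3% of 11138 and 31% of 11022 genes were lower in bulk tumor, and 36.1% and 38.2% were higher. Il1r1 passed the count filter through bulk tumor alone and 3 of the 7, Il1a, Il1r2 and Il1rap, through the sorted cells alone, so that 4 of the 7 (Il1b, Il1rn, Il18bp and Il18rap) had a mean of 25 counts in both groups. Il1b was 9.52, 12.7, 8.67 and 7.56 CPM in bulk tumor, with a log2 fold change of -9.93 ± 0.34 over PMN-MDSC (adjusted p = 2.04e-09) and -9.20 ± 0.36 over M-MDSC (adjusted p = 9.34e-09). Il1a was 2.82 ± 1.58 CPM (SD, n = 4), with log2 fold changes of -8.26 ± 0.38 and -6.66 ± 0.47, given as a description. Il1rn, at 55.4 ± 10 CPM, had -5.02 ± 0.26 and -3.70 ± 0.26 (adjusted p = 1.79e-08 and 2.74e-07), nearer to 0 than Il1a and Il1b in both. Il18, at 8.74 ± 3.98 CPM, was within the range of sorted cells and not called (adjusted p = 0.792 and 0.144; 0.0408 against M-MDSC without M-MDSC library 4). Il18bp had -1.45 ± 0.54 against M-MDSC (adjusted p = 0.0308), a call lost under upper-quartile scaling (-1.22, adjusted p = 0.0615) and without M-MDSC library 1 or 3 or bulk library 1, 2 or 3, with values of -1.28 to -1.11 and adjusted p of 0.069 to 0.123. Bulk tumor held 10.4 to 28.4 CPM of summed neutrophil markers, with Ly6g at 0 in all 4 libraries, which allows up to 0.795 CPM in the smallest. It differed from sorted cells also in that no cell suspension was made, and the effects of tissue makeup and handling cannot be told apart.

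Whether treatment acted differently in tumor and spleen was tested, for each cell type, by the interaction of treatment and compartment. In PMN-MDSC 0 of 7 members were called by edgeR, where 3.17% of 8047 genes were more positive in tumor and 0.336% more negative, with 1 member at an unadjusted p under 0.05 and 1 called by DESeq2. This was Il1rap, with a difference of 1.77 ± 0.53 (adjusted p = 0.0834 by edgeR and 0.0367 by DESeq2). Without treated tumor library 2 edgeR gave 2.02 (adjusted p = 0.0431). In M-MDSC 0 of 8 were called (0.229% and 0.561% of 8730 genes), with 4 at an unadjusted p under 0.05 and 3 called by DESeq2, Il1a included in both counts. DESeq2 called Il1rn and Il1b (adjusted p = 0.00063 and 0.039) besides Il1a. In edgeR Il1rn came closest, with -2.88 ± 0.65 (adjusted p = 0.0535), and without treated spleen library 4 or treated tumor library 3 it was -3.18 and -3.39 (adjusted p = 0.021 and 0.0289). For Il1a no size or p is given, because the untreated spleen libraries held 0 or 1 count each, and the member was tested through its tumor counts alone. Il1b was -1.76 without treated spleen library 4 (adjusted p = 0.0416). A treatment effect called in 1 compartment is thus not shown to differ from the other for any member by edgeR with all libraries. Of the PMN-MDSC calls over all genes 90.4% were more positive in tumor, and 79% by DESeq2.

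Genes around the pathway, from 4 lists, were read in the same fits. Over all genes, 29.4% were called higher and 29.7% lower in tumor than in spleen in untreated PMN-MDSC, and 15.7% and 12.7% in M-MDSC. With treatment 6.1% and 5.52% were called in spleen PMN-MDSC, 2.29% and 1.07% in tumor PMN-MDSC, 10.7% and 8.96% in spleen M-MDSC, and 1.82% and 1.06% in tumor M-MDSC, and the counts below are to be read against these shares. Of 15 IL-1 and NF-kB response genes, 14 were higher and 1 lower in tumor than in spleen among 15 tested in untreated PMN-MDSC, and 6 of the 14 passed the count filter through tumor alone. In M-MDSC 13 were higher and 1 lower of 14 tested, and 6 of the 13 passed through tumor alone. Examples are Tnfaip3, a feedback inhibitor of NF-kB (5.32, adjusted p = 3.54e-07 in PMN-MDSC), and Nfkbia, which encodes the inhibitor IkB alpha (3.73, adjusted p = 3.39e-08 in M-MDSC). With treatment, 9 rose and 0 fell of 11 tested in spleen M-MDSC, of which 3 passed through the treated libraries alone. Among the 9 were Sod2, a mitochondrial superoxide dismutase (1.62, adjusted p = 0.000351), and the acute phase gene Saa3, at 4.05 CPM (38 counts) in untreated and 218 CPM in treated libraries, which is 1 of those 3. In tumor M-MDSC 1 rose and 1 fell of 15, Saa3 (4.35, adjusted p = 0.0174) and Ptgs2, the inducible cyclooxygenase (-2.10, adjusted p = 0.0266). In spleen PMN-MDSC 4 rose and 1 fell of 11, and the 1 lower was Ptgs2, at 40.1 CPM in untreated and 2.03 CPM (15 counts) in treated libraries, which passed through the untreated ones alone, as did 1 of the 4 through the treated ones. In tumor PMN-MDSC 1 rose, Saa3 (3.18, adjusted p = 0.0298), and 3 fell of 15, with Cxcl1 (-1.41, adjusted p = 0.0338) and Il6 (-2.07, adjusted p = 0.0435) among them.

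Of 14 genes of IL-1 processing and release, Nlrp3, the inflammasome sensor, was higher in tumor than in spleen by 1.66 in PMN-MDSC (adjusted p = 0.000366), and by 3.91 in those of the monocytic type (adjusted p = 3.24e-07). The list as a whole had 5 higher and 2 lower of 10 tested, with 1 of the 5 through tumor alone, and 4 higher and 3 lower of 13. With treatment it had 2 higher and 1 lower (through the untreated libraries alone) of 8 in spleen PMN-MDSC, 1 and 0 of 10 in tumor PMN-MDSC, 4 and 1 of 13 in spleen M-MDSC, and 0 and 0 of 13 by edgeR in tumor M-MDSC, where 4 had an unadjusted p under 0.05 and DESeq2 called 2. Casp1, the protease of IL-1 beta and IL-18, rose in PMN-MDSC of spleen (1.42, adjusted p = 0.016) and tumor (1.03, adjusted p = 0.0249). Of 19 receptor signalling genes edgeR called 0 with treatment in PMN-MDSC of spleen or tumor, where 1 and 3 had an unadjusted p under 0.05 and DESeq2 called 1 and 1. In M-MDSC 2 rose in spleen and 1 in tumor, and Peli1, a ubiquitin ligase for IRAK kinases, was among them in spleen (1.85, adjusted p = 0.00011) and in tumor (1.52, adjusted p = 0.0196). Between compartments, Myd88, the adaptor of IL-1 and IL-18 receptors, was lower in tumor PMN-MDSC (-1.73, adjusted p = 0.000341), 1 of 7 signalling genes that were lower and 2 that were higher of 19.

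In bulk tumor, where 33.3% and 31% of all genes were called lower than in PMN-MDSC and M-MDSC, the counts called lower were 15 of 15 and 13 of 14 response genes, 9 of 11 and 11 of 11 processing genes and 13 of 19 and 13 of 19 signalling genes. Through sorted cells alone passed 7 and 6 of these response genes and 5 and 4 of the processing genes.

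Of 12 other ligands and receptors of the family, at most 4 passed the count filter in any comparison. Il36g, the gene of IL-36 gamma, was 324 ± 102 CPM in untreated spleen PMN-MDSC and 80.2 ± 38.5 CPM in tumor PMN-MDSC (SD, n = 4 each; -2.18, adjusted p = 0.00112), and 0.825 ± 0.258 CPM in spleen M-MDSC, from 9 counts in 4 libraries, for which no fold is given. Il18r1, the binding chain of the IL-18 receptor, was 29.7 CPM in spleen and 8.01 CPM in tumor PMN-MDSC, the latter from 68 counts in 4 libraries. Il33, the gene of IL-33, stood at 42.6 ± 27 CPM in bulk tumor.

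The genes whose levels followed each member most closely over the 30 MDSC libraries were ranked by Spearman correlation among 8536 genes. The libraries share cell type, compartment and treatment groups, so this is a description of their common pattern. Nearest to Il1a were E230013L22Rik and Ccrl2 (rho = 0.951 and 0.937), and nearest to Il1b were Thap6, Arih2 and Btg2 (0.958, 0.956 and 0.951). Il1rn was closest to Irak2 (0.905), a kinase of the IL-1 receptor. Il1r2 was closest to Trem1 (0.931), a receptor of neutrophils and monocytes, and then to Gm37347 (0.929), which lies within its bounds on the same strand. Il18bp was closest to Ebi3 (0.904), a subunit of IL-27 and IL-35, Il1rap to Med13l (0.951), Il18 to Nploc4 (0.891) and Il18rap to Nudt4 (0.975). Among the members themselves, Il1rap and Il18rap (0.87) and Il1a and Il1rn (0.859) were the closest pairs.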

How the data were processed

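The deposited values are the authors' raw counts, the number of fragments assigned to each gene in each library, with no normalization. They made stranded total RNA libraries with ribosomal RNA depletion, mapped reads to mm10 (GRCm38) with ContextMap and BWA, and counted fragments by strand with featureCounts on Gencode annotation. The submitters' processing notes name Subread 1.4.6-p3. The methods describe no molecular identifiers, so limits cover counting error only.

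GENCODE M21 (GRCm38) gave the symbol, position and exon length of 53274 identifiers. Levels are CPM of the library total, and FPKM where genes are compared. Each comparison was fitted on its own groups in R 4.3.3 with edgeR 4.0.16 (TMM, robust quasi-likelihood F-test, two-sided) over genes whose mean count reached 25, with Benjamini-Hochberg adjustment over all of them. A gene was called at an adjusted p under 0.05; the study's stricter threshold (0.001 and 2-fold), DESeq2 1.42.0, other scalings, no filter, a fit over all 4 groups and leaving out libraries were alternatives. Treated and untreated libraries come from separate mice, whereas tumor, spleen and cell types come from the same 8 mice, which the columns do not identify. None of 48 pairs of libraries within groups was identical (chi-square per degree of freedom 6.88 to 55.8).

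The members, lists and motifs were chosen with earlier results of these data known. Named genes are all members, at most 3 genes per list and comparison with the smallest adjusted p among those called, and genes from the 3 closest to each member, of which 1 is not reported here. The code was tested on simulated data.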

Additional observations from a re-analysis of the deposited data

Results flagged for a closer look

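Of 63 sets of 4 libraries, a library stood far from the others of its group in 2, by a criterion that chance meets in about 1 in 20. Il1r2 in treated spleen M-MDSC library 4 was 299 CPM, against 26.3 to 48.9 CPM in the other 3. Il18rap in untreated tumor PMN-MDSC library 1 was 44.3 CPM, against 126 to 132 CPM. The treatment effect differed between compartments by the interaction test for 3 response genes in M-MDSC, being less positive in tumor than in spleen. The differences were -2.35 for Nfkbia (adjusted p = 0.0365), -3.06 for the chemokine gene Ccl3 (adjusted p = 0.0442) and -5.30 for the chemokine gene Ccl4 (adjusted p = 0.0244). None of the members was called in that test.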

How the results depend on the processing

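No paired analysis was possible because the columns carry a running number and not the number of the mouse. The number of members called was 2 for treatment in spleen PMN-MDSC, 1 in tumor PMN-MDSC, 5 in spleen M-MDSC and 1 in tumor M-MDSC. At the study's stricter threshold it was 0 in all 4, and 1 in place of 4 for M-MDSC over PMN-MDSC in tumor. With no filter it was 3 in tumor PMN-MDSC and 3 in tumor M-MDSC, where DESeq2 and the fit over all 4 groups also gave 3. For the interaction, 0 became 1 (DESeq2) and 1 (no filter) in PMN-MDSC, and 3 and 4 in M-MDSC. RLE scaling moved no member across the threshold, and DESeq2 gave Il1r2 in spleen M-MDSC no adjusted p. The 2 alternatives without doubted libraries, chosen after seeing the data, left 4 members called in spleen M-MDSC, 1 in tumor M-MDSC and 0 in its interaction.

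Leaving out 1 library gave 1 to 3 members in spleen PMN-MDSC, 1 to 2 in tumor PMN-MDSC, 2 to 5 in spleen M-MDSC, 0 to 2 in tumor M-MDSC, 5 to 6 (in place of 7) and 5 to 5 for tumor over spleen in PMN- and M-MDSC, 6 to 7 and 4 to 6 for M-MDSC over PMN-MDSC in spleen and tumor, 8 to 8 and 7 to 9 for bulk tumor over PMN- and M-MDSC, and 0 to 1 and 0 to 2 for the interactions.

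Changes of sign occurred only among differences that were not called. With no filter Il1rn in tumor PMN-MDSC was 0.0046, and Il18 in bulk tumor over PMN-MDSC was 0.13 (0.19 with upper-quartile scaling). Without the doubted libraries Il1rn in tumor M-MDSC was 0.34 and the interaction of Il18rap 0.21. Leaving out 1 library, treatment effects ranged for Il1rn from -0.055 to 0.43 and Il18rap from -0.24 to 0.030 in spleen PMN-MDSC, for Il1rn from -0.28 to 0.13, Il1r2 from -0.11 to 0.58 and Il1rap from -0.22 to 0.46 in tumor PMN-MDSC, and for Il1a from -0.78 to 0.17, Il1rn from -0.55 to 0.31 and Il1r2 from -0.24 to 0.84 in tumor M-MDSC. Il18rap of tumor over spleen M-MDSC ranged from -0.24 to 0.24, Il18 of bulk tumor over PMN-MDSC from -0.39 to 0.14, and the interactions from -0.52 to 0.076 (Il1rn) and -1.48 to 0.16 (Il1r2) in PMN-MDSC and from -1.38 to 0.040 (Il18rap) in M-MDSC. The causes of these changes were not tested.

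Of the 81 mean levels, 75 moved by less than 1 SD with TMM factors and 81 with medians. Upper-quartile scaling shifted the median of all genes by more than 0.1, to -0.16 (from 0.01) for treatment in spleen PMN-MDSC, 0.17 (from 0.01) and -0.13 (from 0.02) for tumor over spleen in PMN- and M-MDSC, 0.33 (from 0.08) for M-MDSC over PMN-MDSC in spleen, and 0.39 (from 0.09) and 0.38 (from 0.17) for bulk tumor over PMN- and M-MDSC. Over all genes, calls for treatment in spleen PMN-MDSC were 844, against 1354 with DESeq2, 1818 with no filter, 1655 in the fit over all 4 groups and 307 to 1001 without 1 library. They were 279 in tumor PMN-MDSC (613, 864 and, without 1 library, 110 to 276), 241 in tumor M-MDSC (797, 1064, 821 over all 4 groups, 463 without the doubted libraries and 30 to 505), 282 for the PMN-MDSC interaction (501, 676 and 75 to 447) and 69 for that of M-MDSC (307, 659, 35 without the doubted libraries and 7 to 250). With no filter, 3662 replaced 2357 for tumor over spleen in M-MDSC, 1658 replaced 990 (610 to 1234 without 1 library) for M-MDSC over PMN-MDSC in tumor and 11698 replaced 7736 for bulk tumor over PMN-MDSC. Treatment in spleen M-MDSC gave 1733 (1089 to 1808 without 1 library). The stricter threshold left 3, 20, 218 and 1 for treatment in the 4 populations in the order above, 1727 of 4714 and 714 for tumor over spleen, 1993 of 5523 and 126 for M-MDSC over PMN-MDSC, 4469 and 4619 of 7630 for bulk tumor, and 0 and 1 for the interactions. Mean counts under 25 left Il1r1 untested except against bulk tumor, Il1a untested for treatment in spleen and between cell types in spleen, and Il18 untested in spleen PMN-MDSC for treatment, in PMN-MDSC between compartments and for the interaction, and between cell types in tumor.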
